A study of Homo sapiens with 4 samples.

Results

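The replication-dependent histone genes are the typically intronless genes, gathered in clusters, from which dividing cells draw the histones that package newly made DNA. The annotated exons of some, such as the 871 bases of H2BC5, cover only part of the gene's span. They were taken from the deposited table as the protein-coding genes whose older symbol starts with HIST1H, HIST2H, HIST3H or HIST4H. GENCODE 29 names 71 such genes, and 62 of them have a row among the 27106 genes of the table. The 62 comprise 5 genes of the linker histone H1, 13 of H2A, 17 of H2B, 13 of H3 and 14 of H4. By cluster, 49 lie in HIST1 on chromosome 6, 12 in HIST2 on chromosome 1 and 1 (H4C16) in HIST4 on chromosome 12. The other 9, among them all 3 of HIST3, were not analysed here. Of the 62 genes, 61 had a mean normalized count of at least 10 over the libraries and were tested.

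RNA was sequenced from THP-1, an established monocytic cell line derived from a human acute myeloid leukaemia, at day 5. Of the 4 libraries, 2 came from cells given an antisense oligonucleotide (ASO, a short synthetic strand complementary to an RNA, used to deplete it) against the long noncoding RNA SGOL1-AS1, and 2 from cells given a non-targeting ASO. The knockdown libraries held 48558537 and 41435922 gene reads, and the non-targeting libraries 50855150 and 51851314. The knockdown columns bear a code absent from the labels and were assigned to that group by elimination. The labels mention one targeting ASO and give no sequence for it. The targeted RNA, whose current symbol is SGO1-AS1, had 11.5 and 19.4 normalized counts in the knockdown libraries and 23.0 and 19.8 in the non-targeting libraries. Its log2 fold change was -0.48 ± 0.37 (SE; limma adjusted p = 0.555), which at 12 to 24 reads a library does not check the labels. Of 11 monocytic marker genes all 11 were detected, with LYZ, the highest, between 36975 and 40116 normalized counts in every library. Their levels differed widely: CD14 averaged 104 normalized counts and CD68, the lowest, 17.8. COL1A1, a stromal marker, averaged 181. Whether the libraries stem from separate cultures is not stated, so p-values measure only the spread between these samples, and that spread may be technical. Nor is it stated whether RNA was selected by its poly(A) tail. In bulk RNA, fewer cells in S phase and less histone RNA per cell cannot be told apart.

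As background, these genes are transcribed in S phase, when NPAT, a coactivator that is a substrate of cyclin E and CDK2, acts at the clusters. Their mRNAs end in a conserved stem-loop in place of a poly(A) tail. The stem-loop binding protein SLBP holds that structure, the U7 small nuclear ribonucleoprotein with LSM10 and LSM11 pairs downstream of it, and the endonuclease CPSF3 cuts between them. When DNA synthesis stops, the stem-loop mRNAs are tailed with uridine and degraded. Variant histones such as H2A.Z and H3.3 come from other genes with introns and poly(A) tails and are made throughout the cell cycle.

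A search for a fixed stem-loop pattern after the stop codon found a site in the annotated transcripts of 27 of the 62 genes. The sites below are shown because the letters of the stem set H4 genes apart from H2A, H2B and H3 genes. Capitals mark the 16-base stem-loop, lower case the bases on either side.
H2BC5 (HIST1H2BD): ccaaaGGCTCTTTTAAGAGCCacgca
H3C8 (HIST1H3G): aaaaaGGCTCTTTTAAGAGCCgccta
H3C10 (HIST1H3H): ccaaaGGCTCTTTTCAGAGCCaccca
H2AC11 (HIST1H2AG): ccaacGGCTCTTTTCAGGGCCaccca
H3C6 (HIST1H3E): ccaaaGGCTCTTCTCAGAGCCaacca
H4C8 (HIST1H4H): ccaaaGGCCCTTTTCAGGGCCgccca
H4C9 (HIST1H4I): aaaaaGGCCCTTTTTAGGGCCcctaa
All 8 H4 sites begin with GGCCC, and all 19 sites of H2A, H2B and H3 genes begin with GGCTC. The form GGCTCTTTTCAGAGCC was found in 13 genes and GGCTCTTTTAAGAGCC in 4, which are H2BC4, H2BC5, H2BC7 and H3C8. The stem-loop began 22 to 67 bases after the stop codon. In 12 of the 27 genes the annotated transcript continued at least 500 bases beyond it. For 27 other genes the annotation gives the coding sequence alone. The other 35 genes have an annotated transcript longer than the coding sequence, but not all of them gave a site. No H1 gene gave one.

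Histone genes were abundant in every library. Their summed normalized count was 368320 and 364970 in the knockdown libraries and 380520 and 377540 in the non-targeting libraries, which was 0.791% and 0.772% of the knockdown totals and 0.779% and 0.774% of the non-targeting totals. The median gene had a mean of 4452 normalized counts, against 388 over all tested genes. Above 1000 normalized counts were 51 of the 62 genes, and above 10000 were 9. The 10 most abundant genes held 46.4% of the sum. At the other end, H1-6 (the testis linker histone H1t) averaged 58.4 normalized counts, H3C6 28.6 and H2BC1 (a testis-specific H2B, HIST1H2BA) 0.479. H2BC1 had 2 reads in knockdown library 1 and 0 in the other libraries, and was the one gene under the filter.

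**Figure D1:**
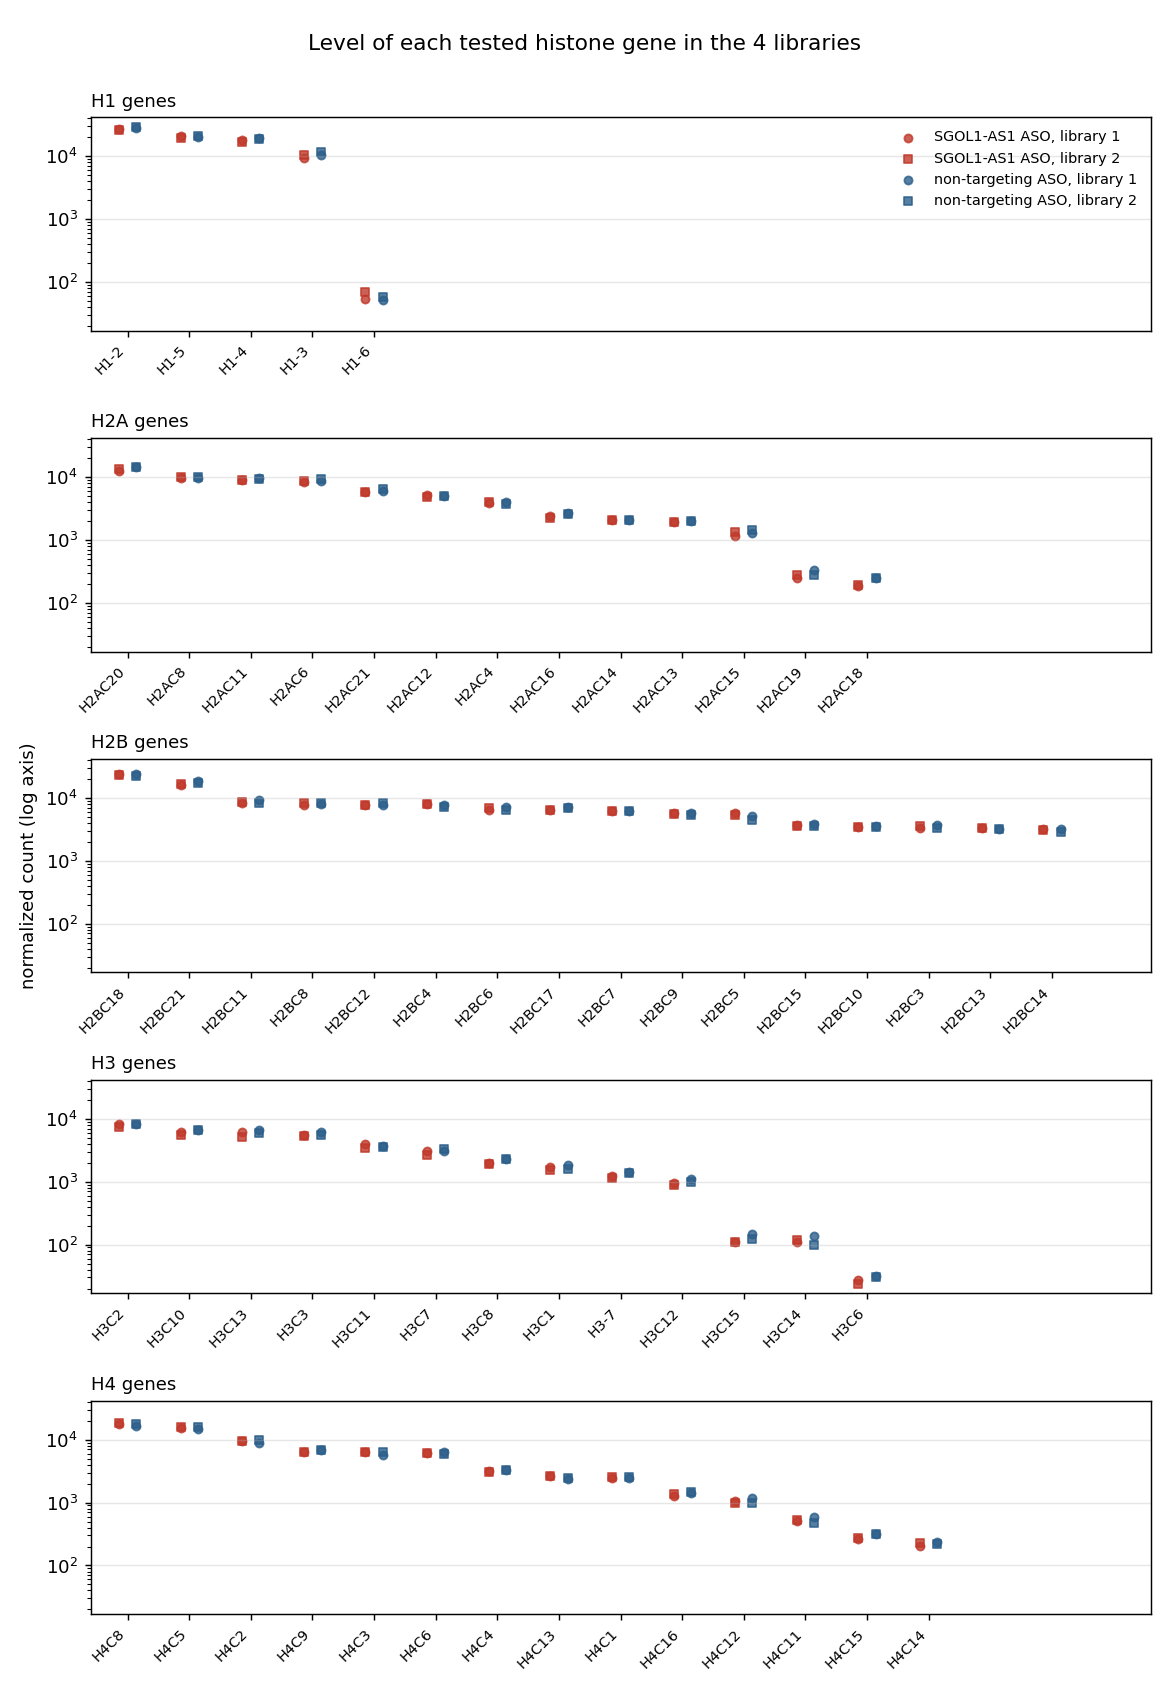
Normalized count (log axis) of each of the 61 tested histone genes in the 4 libraries, one panel per histone type, with genes ordered by mean level. Red marks are the SGOL1-AS1 ASO libraries and blue marks the non-targeting libraries; the 4 marks of most genes lie close together, and levels run from about 28.6 for H3C6 to 27347 for H1-2.

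Levels between genes are compared per kilobase of coding sequence. H2BC18 led with 57268 normalized counts per kilobase, followed by H4C8 with 55891, H4C5 with 49597, H2BC21 with 44673 and H1-2 with 42597. This order depends on the unit, because counts cover whole exons: the annotated exons span 3196 bases against 405 coding bases in H2BC18, 2163 against 312 in H4C8, 1487 against 312 in H4C5 and 2194 against 381 in H2BC21, while in H1-2 both are 642. Per kilobase of annotated exon H1-2 led with 42597 normalized counts, and H2BC18 had 7257. The annotated span of H2BC18 also overlaps FCGR1A on the opposite strand. Per kilobase of coding sequence H2AC20, the most abundant H2A gene, had 34877 and H3C2, the most abundant H3 gene, 19429.

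The knockdown and non-targeting libraries differed little in histone mRNA. By limma over all 19398 genes with a mean of at least 10, and at an adjusted p under 0.05, 2 of 61 histone genes were called (3.28%), against 4.25% of all tested genes. H2BC5 was higher in the knockdown libraries, where 0.851% of all genes were called higher. H3C8 was lower, where 3.4% of all genes were called lower. The count called was 1 by edgeR (1.64%) and 0 by DESeq2 on the recovered reads, against 3.69% and 2.29% of all genes. At an unadjusted p under 0.05, 2 histone genes lay higher and 16 lower, which is 3.28% and 26.2% of them, against 6.17% and 11% of all genes. With a correction for GC content and exonic length 10 histone genes (16.4%) were called, all lower, against 4.82% of all genes. The count rests on single libraries and changed, as did the count over all genes, when any 1 library was left out. Relative to the non-targeting mean, the median histone gene stood at -0.049 on the log2 scale in knockdown library 1 and -0.054 in knockdown library 2. In the non-targeting libraries it stood at 0.013 and -0.013.

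The direction of the small differences was mostly downward. Log2 fold changes were below 0 for 43 of 61 genes, against 52.5% of all tested genes, with a median of -0.07 against -0.01. In 25 genes (41.0%) both knockdown libraries lay below both non-targeting libraries, against 25.1% of all genes. In 5 genes (8.20%) both lay above, against 21.6% of all genes. The genes share sequence, clusters and libraries, so these counts are a description. The fold change was within 10% in 47 of 61 genes and beyond 1.2-fold in 3, namely H2AC18, H3C15 and H3C6.

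The summed level was 0.967 times the non-targeting level, while the total over all genes was 0.961 times. With library totals made equal the histone ratio was 1.01, and under quantile normalization it was 1.01, so the sign of the summed difference depends on the scaling. The median over histone genes stayed below 0 under each scaling, between -0.11 and -0.01.

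**Figure D2:**
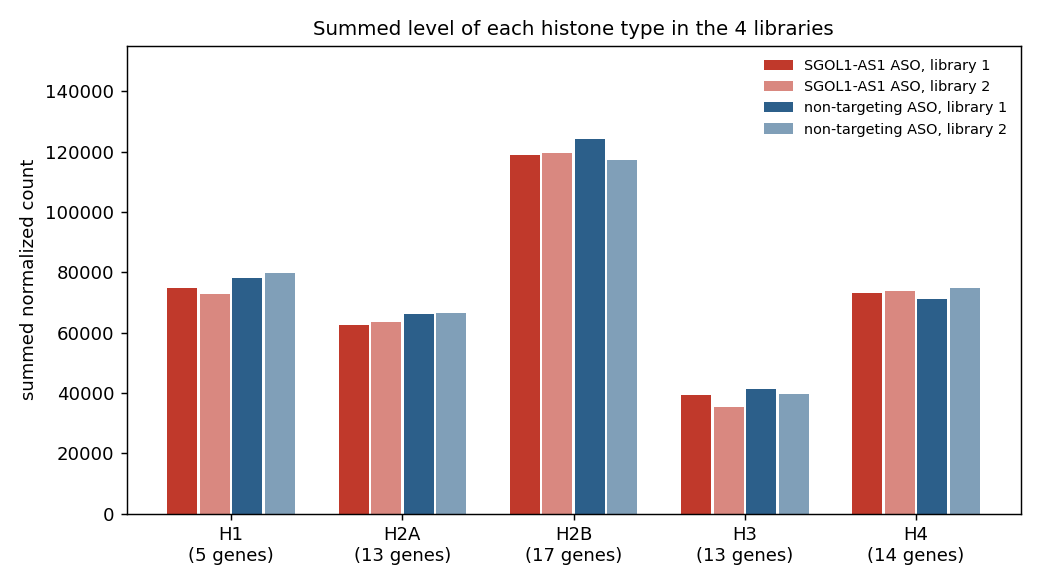
Summed normalized count of the genes of each histone type in each of the 4 libraries, with SGOL1-AS1 ASO bars in red and non-targeting ASO bars in blue. For H1, H2A and H3 both red bars are lower than both blue bars, while for H2B and H4 they fall between the blue bars. As shares of the library total, which are not drawn, both knockdown libraries are below both non-targeting libraries for H2A only. On that scale they are above them for H4.

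The called rise was in H2BC5 (ENSG00000158373, older symbol HIST1H2BD, chr6:26158146-26171349, GRCh38), a gene for canonical H2B. It had 5771 and 5358 normalized counts in the knockdown libraries and 5069 and 4435 in the non-targeting libraries. Both knockdown values were above both non-targeting values, with means of 5565 ± 292 (SD, n = 2) and 4752 ± 448. The log2 fold change was 0.23 ± 0.06 (SE; limma adjusted p = 0.032). The call held in 11 of 16 alternatives, with adjusted p between 0.000288 and 0.502. It was lost without knockdown library 1 (0.0726) and without non-targeting library 2, where the log2 fold change was 0.13 (0.502). DESeq2 (0.0566) and the correction for GC content and exonic length (0.117) did not call it either.

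The called fall was in H3C8 (ENSG00000273983, older symbol HIST1H3G, chr6:26269405-26271815), which encodes H3.1. It had 2016 and 1899 normalized counts in the knockdown libraries and 2305 and 2268 in the non-targeting libraries, so the groups did not overlap. H3C8 fell by 0.22 on the log2 scale (SE 0.06; limma adjusted p = 0.0369). The call held in 7 of 16 alternatives. It was lost under each of 3 other scalings, without knockdown library 2 (0.127), without non-targeting library 1 (0.295), without non-targeting library 2 (0.149) and by both count tests (0.0556 by edgeR and 0.122 by DESeq2).

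H3 genes, which supply the canonical histones H3.1 and H3.2, had the lowest median log2 fold change of the 5 types with all libraries, at -0.16. Without knockdown library 2 the H3 median was -0.083 and the H2A median -0.11. Of 13 tested genes 1 was called, against 4.25% of all tested genes. A log2 fold change below 0 was found in 12, against 52.5% of all genes, and both knockdown libraries lay below both non-targeting libraries in 8, against 25.1%. For H3 the summed level was 39170 and 35341 in the knockdown libraries against 41299 and 39555 in the non-targeting libraries. As a share of the library total it was 0.0841% and 0.0748% against 0.0846% and 0.0811%, which overlapped. Relative to the non-targeting mean, the median H3 gene stood at -0.08 on the log2 scale in knockdown library 1 and at -0.24 in knockdown library 2, against 0.04 and -0.04 in the non-targeting libraries. Knockdown library 2 lay further down than library 1.

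Among single H3 genes, H3C2 (HIST1H3B) had 8196 and 7412 normalized counts in the knockdown libraries and 8208 and 8126 in the non-targeting libraries. H3C10 (HIST1H3H) had 6211 and 5575 in the knockdown libraries and 6617 and 6546 in the non-targeting libraries. H3C13 (HIST2H3D) had 6148 and 5214 in the knockdown libraries and 6623 and 5968 in the non-targeting libraries. Groups did not overlap for H3C10 (log2 fold change -0.16 ± 0.06 SE, limma adjusted p = 0.114) but did for H3C13 (-0.15 ± 0.07 SE, limma adjusted p = 0.234). H3C3 and H3C7, both in HIST1, had log2 fold changes of -0.12 and -0.17 without overlap between the groups. H3C11 was the exception to the downward direction, with 4006 and 3493 normalized counts in the knockdown libraries and 3737 and 3551 in the non-targeting libraries. The H3 median was -0.16 in HIST1 (9 genes) and -0.19 in HIST2 (4 genes).

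The H1 genes, whose products bind the linker DNA between nucleosomes, included the most abundant histone mRNA of the libraries. H1-2 (HIST1H1C) had 26496 and 26202 normalized counts in the knockdown libraries and 27790 and 28902 in the non-targeting libraries. H1-5 (HIST1H1B) had 20588 and 19500 in the knockdown libraries and 20267 and 20664 in the non-targeting libraries. H1-4 (HIST1H1E) had 18250 and 16573 in the knockdown libraries and 19485 and 18529 in the non-targeting libraries. The groups were apart for H1-2 and H1-4 and overlapped for H1-5. The log2 fold changes were -0.11 ± 0.05 (SE) for H1-2, -0.13 ± 0.05 for H1-4 and -0.03 ± 0.05 for H1-5, with limma adjusted p of 0.259, 0.203 and 0.813. H1-3 (HIST1H1D) stood at 9473 and 10441 in the knockdown libraries and 10406 and 11509 in the non-targeting libraries, with a log2 fold change of -0.14 and overlapping groups. Of the 5 H1 genes 0 were called by limma, edgeR or DESeq2. An unadjusted p under 0.05 was found in 3, all lower, against 11% of all tested genes. The sum of H1 was 74860 and 72785 normalized counts in the knockdown libraries and 77999 and 79662 in the non-targeting libraries, a ratio of 0.936. As a share of the library total it was 0.161% and 0.154% against 0.160% and 0.163%, so on that scale the groups overlapped.

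H2A genes, which encode the partner of H2B in the nucleosome, had a median log2 fold change of -0.09, which was -0.028 under quantile normalization, -0.030 with equal library totals and -0.042 without non-targeting library 2. Of 13 tested genes 0 were called by limma, edgeR or DESeq2, and 3 had an unadjusted p under 0.05, all lower (23.1%, against 11% of all tested genes). In 7 both knockdown libraries lay below both non-targeting libraries, against 25.1% of all tested genes. H2AC20 (HIST2H2AC) had 12556 and 13247 normalized counts in the knockdown libraries and 14416 and 14189 in the non-targeting libraries, a difference of -0.15 ± 0.05 on the log2 scale (SE; limma adjusted p = 0.0955). H2AC8 (HIST1H2AE) had 9633 and 10059 in the knockdown libraries and 9776 and 9836 in the non-targeting libraries, with overlap. H2AC11 (HIST1H2AG) had 9115 and 8894 in the knockdown libraries and 9741 and 9391 in the non-targeting libraries, without overlap and with a log2 fold change of -0.09. H2AC16 (HIST1H2AL) was at -0.19 ± 0.06 (SE; limma adjusted p = 0.084), also without overlap. The greatest difference of any tested histone gene was in H2AC18 (HIST2H2AA3), with 187 and 192 normalized counts in the knockdown libraries and 246 and 250 in the non-targeting libraries. Its groups were well apart, but at this level the log2 fold change of -0.39 carried an SE of 0.12 and a limma adjusted p of 0.0806.

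The summed level of H2B genes was 118860 and 119420 normalized counts in the knockdown libraries, between the 123990 and 117130 of the non-targeting libraries. The median of 16 tested genes was -0.02, and it was 0.029 under quantile normalization, 0.038 with equal library totals, 0.0093 with knockdown library 1 left out and 0.031 with non-targeting library 1 left out. H2BC18 (HIST2H2BF) had 23565 and 23262 normalized counts in the knockdown libraries and 23897 and 22051 in the non-targeting libraries. H2BC21 (HIST2H2BE) had 15938 and 16336 in the knockdown libraries and 18616 and 17192 in the non-targeting libraries. H2BC11 (HIST1H2BJ) had 8261 and 8477 in the knockdown libraries and 9113 and 8437 in the non-targeting libraries. Of these the groups were apart for H2BC21, at -0.15 ± 0.05 (SE; limma adjusted p = 0.109). Both knockdown libraries were above both non-targeting libraries for H2BC4, H2BC5 and H2BC13, which is 18.8% against 21.6% of all tested genes. They were below them for 4 genes, among them H2BC17 (HIST1H2BO) at -0.13, which is 25% against 25.1%.

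H4 genes had a median log2 fold change of -0.01, which was 0.05 with equal library totals, -0.075 with the correction for GC content and exonic length and -0.072 without non-targeting library 2. The summed level was 73053 and 73836 normalized counts in the knockdown libraries against 71016 and 74611 in the non-targeting libraries. Of 14 tested genes 0 were called by limma, edgeR or DESeq2, and 2 had an unadjusted p under 0.05, 1 in each direction. H4C8 (HIST1H4H) had 17693 and 18115 normalized counts in the knockdown libraries and 16372 and 17573 in the non-targeting libraries, a log2 fold change of 0.08 ± 0.05 (SE). H4C5 (HIST1H4E) had 15293 and 15731 in the knockdown libraries and 14776 and 16098 in the non-targeting libraries. H4C2 (HIST1H4B) had 9604 and 9592 in the knockdown libraries and 8804 and 9917 in the non-targeting libraries. The groups were narrowly apart for H4C8 and overlapped for the other two. The members with an unadjusted p under 0.05 were H4C13 (HIST1H4L), at 0.14 ± 0.06 (SE; limma adjusted p = 0.205), and H4C9 (HIST1H4I), at -0.12 ± 0.05 (limma adjusted p = 0.199).

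**Figure D3:**
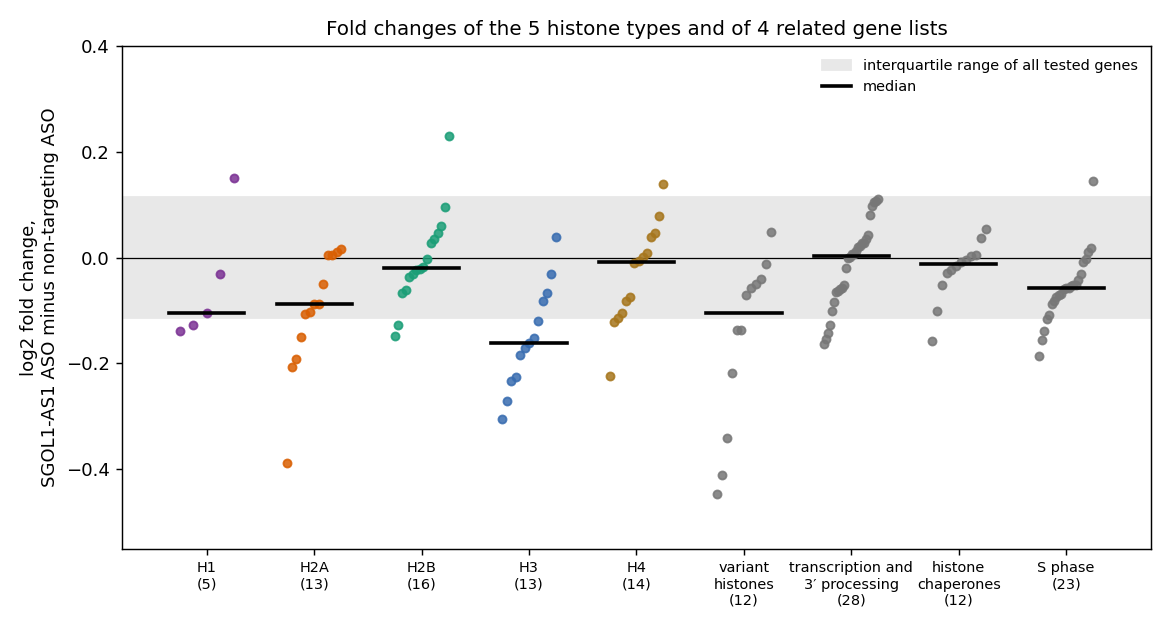
Log2 fold change, SGOL1-AS1 ASO minus non-targeting ASO, of every tested gene of the 5 histone types and of 4 related lists, with the number of genes under each name. Black lines are medians and the grey band is the interquartile range of all 19398 tested genes; the H3 median of -0.16 lies below that band, the H2B and H4 medians of -0.02 and -0.01 lie inside it.

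By cluster, log2 fold changes were lower in HIST2 than in HIST1. The median log2 fold change was -0.15 over 12 HIST2 genes and -0.03 over 48 HIST1 genes. Below 0 were 11 of 12 HIST2 genes and 31 of 48 HIST1 genes, and both knockdown libraries lay below both non-targeting libraries in 7 of 12 and in 17 of 48, against 52.5% and 25.1% of all tested genes. The HIST2 sum was 66237 and 66260 normalized counts in the knockdown libraries and 72291 and 68591 in the non-targeting libraries, a ratio of 0.941. As a share of the library total this sum was 0.142% and 0.140% against 0.148% and 0.141%, so on that scale the groups overlapped. Of the 12 HIST2 genes 0 were called by limma, edgeR or DESeq2. An unadjusted p under 0.05 was found in 5, all lower (41.7%, against 11% of all tested genes). By type, H2A genes had medians of -0.18 in HIST2 (4 genes) and -0.05 in HIST1 (9 genes), H2B genes -0.06 (2 genes) and -0.02 (14 genes), and H4 genes -0.15 (2 genes) and 0.00 (11 genes). In 8 of the 12 HIST2 genes at least 50% of the 75-base windows occur in another annotated gene, so their values are uncertain. The HIST2 median was -0.22 over those 8 and -0.13 over the other 4. Of the 5 HIST2 genes with an unadjusted p under 0.05, 3 were among those 8 and 2 among the other 4. No test compared the clusters, since genes of a cluster are not replicates. HIST4 consists of H4C16, with 1265 and 1377 normalized counts in the knockdown libraries and 1404 and 1454 in the non-targeting libraries.

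**Figure D4:**
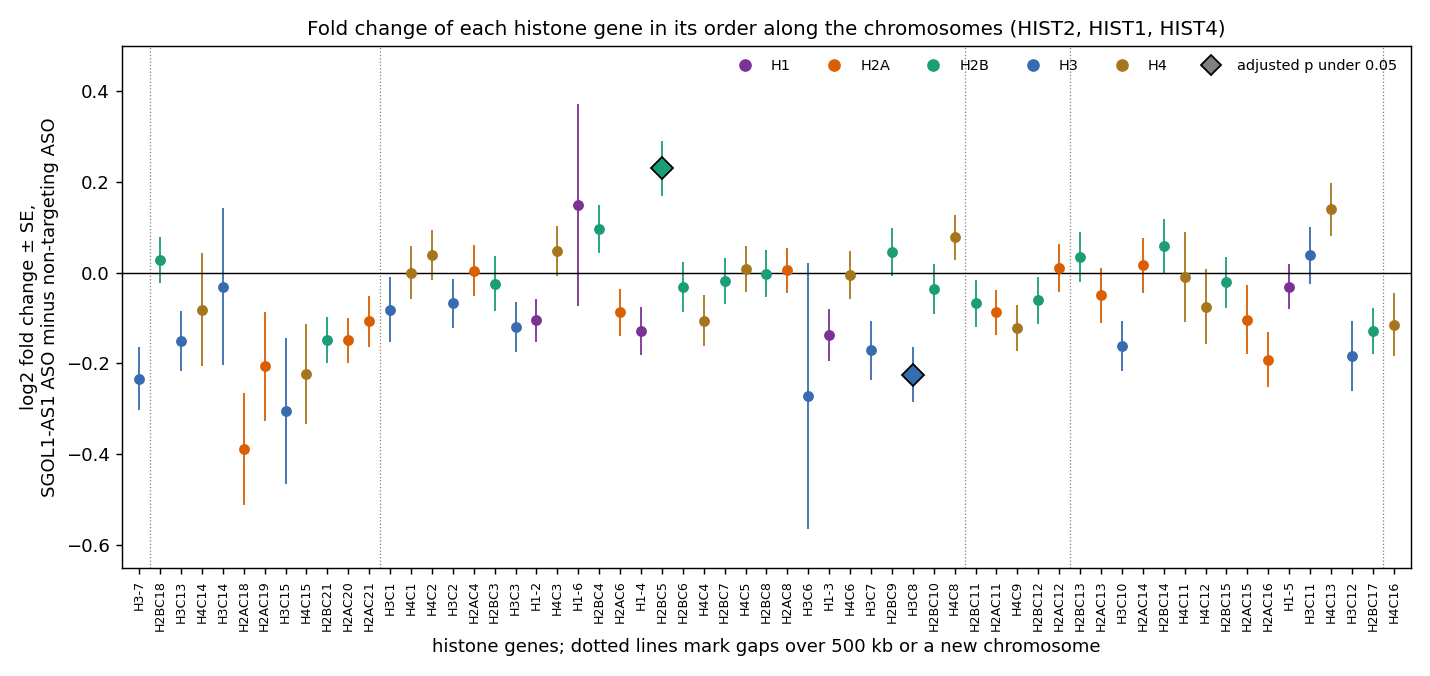
Log2 fold change ± SE of the 61 tested histone genes in their order along chromosome 1 (HIST2), chromosome 6 (HIST1) and chromosome 12 (HIST4), coloured by type, with diamonds for an adjusted p under 0.05. The diamonds are H2BC5 at 0.23 and H3C8 at -0.22; in HIST2, at the left, 11 of 12 genes are below 0.

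Within HIST1, gaps over 500 kb separate the genes into 3 stretches. The first, chr6:25726777-26285638, holds 29 genes from H2BC1 to H4C8, with a median log2 fold change of -0.02. The second, chr6:27125897-27147515, holds 5 genes from H2BC11 to H2AC12, with a median of -0.07. The third, chr6:27807444-27893843, holds 15 genes from H2BC13 to H2BC17, with a median of -0.03. Non-histone coding genes lying between the HIST1 genes, such as BTN2A2 and TRIM38, gave 0 calls among 14 tested by limma, edgeR or DESeq2, with a median of -0.02. At an unadjusted p under 0.05, 1 was higher (7.14%, against 6.17% of all tested genes) and 0 lower.

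Some H2A and H2B genes stand head to head and share the DNA between their starts. Such pairs numbered 7 at distances of 218 to 330 bases, and their log2 fold changes had the same sign in 3. H2BC21 and H2AC20 in HIST2 were at -0.15 and -0.15. H2BC4 and H2AC6 in HIST1 were at 0.10 and -0.09, with no overlap between the groups for either gene. Neither was called (limma adjusted p = 0.375 and 0.414). Of all tested genes, 21.6% had both knockdown libraries above both non-targeting libraries and 25.1% had both below.

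Promoters are shown for the called genes and for an abundant gene of 3 types, to show where 4 short elements lie. The 120 bases just before the annotated start come from RefSeq on GRCh38.p14. Capitals mark matches on either strand to the octamer ATTTGCAT, the TATA box TATAAA, the CCAAT box and GGTCCG, the core of the H4 element known as site II, which the factor HINFP binds.
H2BC5, plus strand, window chr6:26157871-26158170: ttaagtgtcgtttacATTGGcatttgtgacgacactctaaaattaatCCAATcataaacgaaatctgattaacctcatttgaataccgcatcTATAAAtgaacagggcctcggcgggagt
H3C8, minus strand, window chr6:26271364-26271663: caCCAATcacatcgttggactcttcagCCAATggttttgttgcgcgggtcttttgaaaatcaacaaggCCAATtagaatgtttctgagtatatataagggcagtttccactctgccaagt
H2BC21, minus strand, window chr1:149886633-149886932: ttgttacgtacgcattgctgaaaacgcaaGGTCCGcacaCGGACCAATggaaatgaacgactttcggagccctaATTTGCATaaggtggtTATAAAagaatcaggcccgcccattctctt
H4C8, minus strand, window chr6:26285485-26285784: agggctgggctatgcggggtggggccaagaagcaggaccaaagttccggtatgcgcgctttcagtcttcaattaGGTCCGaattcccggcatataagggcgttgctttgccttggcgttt
H1-2, minus strand, window chr6:26056421-26056720: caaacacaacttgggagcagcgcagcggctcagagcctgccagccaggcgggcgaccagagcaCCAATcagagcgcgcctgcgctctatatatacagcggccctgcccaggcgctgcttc

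A RefSeq window of 300 bases, 250 before to 50 after the start, was matched for 57 of the 62 genes. GGTCCG was in 12 of 12 H4 windows, each time 44 to 47 bases before the start, against 11.3% of all 35116 promoters. The octamer, a site for POU2F1, was in 14 of 17 H2B and 8 of 12 H2A windows, against 1.77% of all promoters. It was in 0 of the 28 windows of H1, H3 and H4 genes. Its median position relative to the start was -49 in H2B windows and -200.5 in H2A windows. Windows of head-to-head H2A and H2B genes overlap, so an octamer can count for both genes, as in H2BC21 and H2AC20. The CCAAT box was in every H1, H2A, H2B and H3 window and in 3 of 12 H4 windows, against 34.6% of all promoters. TATAAA was in 68.4% of histone windows against 11.5% of all. Matches overlapped each other in 3 genes, among them the head-to-head H2BC21 and H2AC20, which share the site. H2BC5 is one of 3 H2B genes with no octamer match, with H2BC13 and H2BC15, whose log2 fold changes were 0.03 and -0.02. The 13 tested H2B genes with the octamer had log2 fold changes of -0.15 to 0.10, with a median of -0.02. A match is a string of letters and not a measured binding site.

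Reads of near-identical copies can be split or dropped by counting, so shared sequence bears on levels. Of the 62 genes, 36 had no 75-base window in common with another annotated gene, 44 had under 5%, 13 had at least 50% and 5 had 100%. The median level was 525 normalized counts in the 13 and 5595 in the 44. The duplicated HIST2 genes H3C14 and H3C15, H4C14 and H4C15, and H2AC18 and H2AC19 averaged 116 to 294 normalized counts with 96.2% to 100% of their windows shared. Their levels and fold changes, H2AC18 among them, are uncertain, as are those of H3-7 (HIST2H3PS2), which had 1223 and 1162 normalized counts in the knockdown libraries and 1428 and 1375 in the non-targeting libraries. H2BC5 shares 1.51% of its windows and H3C8 none. Over the 43 tested genes under 5%, the median log2 fold change was -0.03, and over their 8 H3 genes it was -0.14. The annotated spans of 4 pairs of histone genes also overlap, namely H3C14 with H4C14, H3C15 with H4C15, and H2BC15 with H2AC15 and with H2AC16, and the strand setting of the counting is not given in the sources used here.

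**Figure D5:**
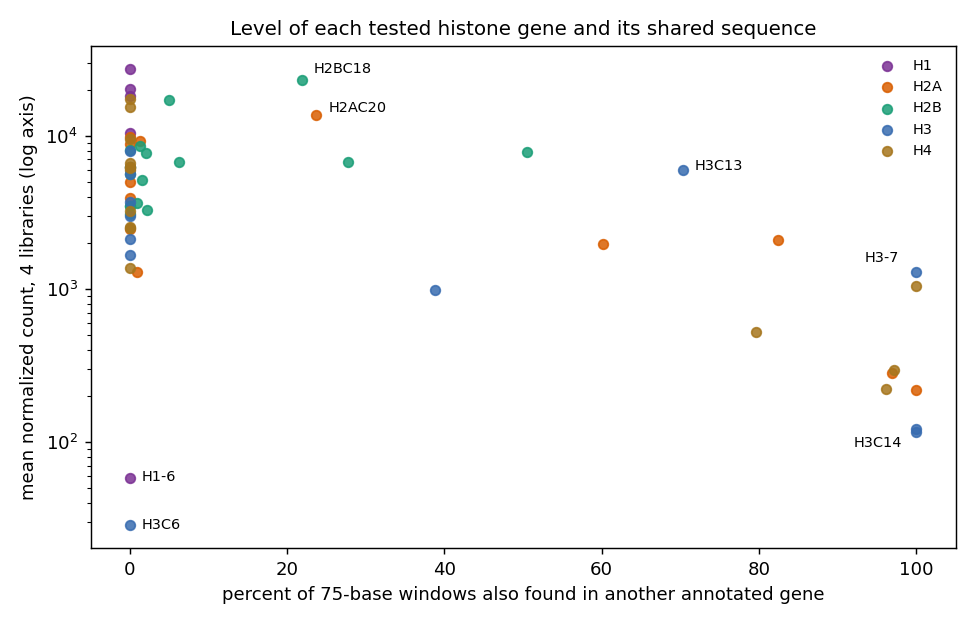
Mean normalized count over the 4 libraries (log axis) of each tested histone gene against the percentage of its 75-base windows that occur in another annotated gene, coloured by type. Genes at or near 100% lie lower than most genes at 0%, with H3C6 and H1-6 as low genes without shared windows.

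Variant histones outside the clusters gave 3 calls among 12 tested genes, all lower in the knockdown libraries, by limma and by edgeR, and 2 by DESeq2. By limma 3.4% of all tested genes were called lower. H1-10 (H1FX), a linker histone variant, had 6357 and 5840 normalized counts in the knockdown libraries and 8283 and 7200 in the non-targeting libraries, and fell by 0.34 on the log2 scale (SE 0.06; limma adjusted p = 0.00153). MACROH2A2 (H2AFY2) had 251 and 270 in the knockdown libraries and 365 and 346 in the non-targeting libraries, and fell by 0.45 (SE 0.11; limma adjusted p = 0.0191). The calls of H1-10 and MACROH2A2 were lost without non-targeting library 1 (limma adjusted p of 0.085 and 0.199), and that of MACROH2A2 also without non-targeting library 2 (0.0603). The median of the 12 was -0.10.

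Other variants did not pass. The log2 fold changes were -0.04 for H2AZ1 (H2AFZ) and 0.05 for H2AZ2 (H2AFV), the H2A.Z genes, and -0.07 for H3-3A and -0.14 for H3-3B, the H3.3 genes. They were -0.14 for H2AX, the variant phosphorylated at DNA breaks, -0.22 for H2AJ, -0.06 for MACROH2A1 (H2AFY) and -0.01 for CENPA, the centromeric H3. Their limma adjusted p lay between 0.148 for H3-3B and 0.954 for CENPA.

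The machinery of histone mRNA synthesis and 3′ processing gave 0 calls among 28 tested genes by limma, edgeR or DESeq2, with a median log2 fold change of 0.00. At an unadjusted p under 0.05, 4 were lower (14.3%, against 11% of all tested genes) and 0 higher. SLBP had 5580 and 5742 normalized counts in the knockdown libraries and 6314 and 6360 in the non-targeting libraries, without overlap, at -0.16 ± 0.05 (SE; limma adjusted p = 0.0778). NPAT was at 0.10, LSM10 at -0.08, LSM11 at 0.04, ZNF473, a zinc finger protein of the processing complex, at 0.11, CPSF3 at 0.01 and HINFP at 0.03. ERI1, the exonuclease that trims histone mRNA ends, was at 0.00. CASP8AP2, the partner of NPAT known as FLASH, was not analysed here. Histone chaperones gave 0 calls among 12 tested by the 3 tools and 0 at an unadjusted p under 0.05, with a median of -0.01.

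S-phase genes such as PCNA and the MCM helicase subunits gave 0 calls among 23 tested by limma, edgeR or DESeq2, with a median log2 fold change of -0.06. At an unadjusted p under 0.05, 4 were lower (17.4%) and 1, POLA1, was higher (4.35%). Of all tested genes 11% were lower and 6.17% higher at that threshold. Both knockdown libraries lay below both non-targeting libraries in 12 of the 23, against 25.1% of all tested genes. The part of these small S-phase differences in the histone median of -0.07 was not tested. RN7SL1, an abundant RNA without a poly(A) tail, had 1533200 and 1505230 normalized counts in the knockdown libraries and 1710350 and 1841710 in the non-targeting libraries. Its log2 fold change was -0.22 ± 0.07 (SE; limma adjusted p = 0.0788), and it was called lower by edgeR and DESeq2. The other 6 tested genes of that list had means between 11.2 and 39.7 normalized counts and gave 0 calls by the 3 tools, and RN7SK, RMRP and RPPH1 were not analysed here. Of the monocytic markers, 2 of 11 were called, both lower, by all 3 tools, where limma called 3.4% of all tested genes lower. FCGR1A fell by 0.37 (limma adjusted p = 0.00118) and CD4 by 0.35 (0.000193). Log2 fold changes were below 0 for 9 of the 11, against 52.5% of all tested genes. They were above 0 for LYZ (0.10, both knockdown libraries above both non-targeting libraries) and CD33 (0.05). Of 14 markers of lymphoid, erythroid, megakaryocytic, epithelial and stromal cells 6 have a row, 5 were tested and 0 called. The 6 summed to 481 and 513 normalized counts in the knockdown libraries and 520 and 479 in the non-targeting libraries.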

How the data were processed

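Per the labels' protocols, RNA was prepared with the Qiagen RNeasy Plus Mini kit and libraries with NEBNext Ultra II. The submitters' processing notes name STAR 2.5.1b, DESeq2 without a version and GRCh38; the sources used here do not give the annotation, counting tool or strand setting. The deposited signal is one normalized count per gene, which the authors made by scaling each library's read counts with its size factor. Undoing that factor gave whole reads for every value, to within 0.000156 of a read. Every gene has at least 2 reads in knockdown library 1, so genes absent from that library are not analysed here. Knockdown libraries are numbered in column order.

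The test was limma 3.58.1 (R 4.3.3) on log2(value + 1), with empirical Bayes moderation, a mean-variance trend, all 4 libraries and no covariates. Genes averaging 10 or more were tested, and p-values were adjusted over all of them by Benjamini-Hochberg. Such fold changes understate the change of low genes. Fold changes are SGOL1-AS1 ASO minus non-targeting ASO, and SE is limma's standard error. Alternatives were edgeR 4.0.16 by quasi-likelihood, DESeq2 1.42.0, both on the recovered reads, other scalings, filters, pseudocounts, a correction for GC content and exonic length, other limma settings and leaving out each library. On simulated counts for 19385 genes, limma called 81 of 100 genes given a 1.5-fold change and 98 of 100 given a 2-fold change. Of the 185 calls 6 were false. Genes with the lowest means were given no change, and changes under 1.5-fold were not simulated. Every tested histone gene differed by less than 1.5-fold, so the simulation does not show how often such differences would be called.

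Gene spans and transcripts came from GENCODE 29 on GRCh38, promoters from RefSeq on GRCh38.p14. Of the 62 genes, 3 were matched through a newer Ensembl identifier. A stem-loop was accepted only just after an open reading frame of the annotated coding length. Shared windows were compared with both strands of all annotated transcripts of other genes. The genes named were the 3 most abundant of each type, those past the threshold, the greatest rise and fall and the first gene under the filter, the listed variants and machinery genes, and up to 3 called genes of each other list; the rest were named after their values were seen. Values of 1 gene that the rule takes are not reported here. The members and lists were chosen with earlier results of these data known.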

Additional observations from a re-analysis of the deposited data

How the results depend on the processing

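Over all genes 825 were called, against 477 with quantile normalization, 528 with equal totals, 445 by DESeq2, 0 with no mean-variance trend (2337 at an unadjusted p under 0.05), 383 at a threshold of 0.01 and 1293 at 0.1, and 421 to 1220 with 1 library left out. Of the histone genes 2 were called, 1 higher and 1 lower. The count was 1 (1 higher, 0 lower) with equal medians, quantile normalization, equal totals or edgeR, 10 (0 higher, 10 lower) with the correction for GC content and exonic length, 3 (1 higher, 2 lower) with robust empirical Bayes, 0 with no trend, by DESeq2 or at 0.01, and 6 (5 lower) at 0.1. With 1 library left out it ran from 0 to 7, with 0 to 1 higher and 0 to 7 lower. The median log2 fold change of -0.07 was -0.050 with equal medians, -0.024 with quantile normalization, -0.010 with equal totals and -0.11 with the GC and length correction, and -0.077 to -0.047 with 1 library left out. The summed ratio of 0.967 was 0.979 with equal medians, 1.01 with quantile normalization, 1.01 with equal totals and 0.943 with the GC and length correction. The cause of these shifts was not tested. Those fits leave 1 library in a group and take its variation from the other group's spread. No paired analysis was possible because the knockdown columns were assigned by elimination and share fewer than 2 replicate numbers with the non-targeting columns. Depth limits the low genes, with an SE of 0.29 for H3C6 against a median of 0.06 over the tested histone genes.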

Other observations

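Histone pseudogenes had little signal. Of 19 annotated in GENCODE 29, 10 have a row and 3 were tested, with 0 called by limma, edgeR or DESeq2 and 1 at an unadjusted p under 0.05. The 10 summed to 466 and 432 normalized counts in the knockdown libraries and 404 and 393 in the non-targeting libraries. H2BC20P (HIST2H2BC) had 238 and 235 normalized counts in the knockdown libraries and 195 and 206 in the non-targeting libraries, and H2AC5P (HIST1H2APS5) had 49.9 and 41.1 in the knockdown libraries and 34.6 and 26.3 in the non-targeting libraries. Both had all knockdown values above all non-targeting values, as did 5 of the 61 tested histone genes and 21.6% of all tested genes. H3P4 and H2BC16P, untested at means of 2.91 and 7.09 normalized counts, lay the other way. Log2 fold changes were below 0 for 43 of the 61 tested histone genes, against 52.5% of all tested genes. Neither H2BC20P nor H2AC5P was past the threshold (limma adjusted p = 0.335 and 0.28).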
